A study of Homo sapiens with 12 samples.

Results

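The 39 genes described here are textbook androgen-induced or prostate secretory genes, listed by name and matched by symbol to the Ensembl gene IDs of the count files. All 39 matched 1 ID each among the 58381 genes counted, and all 39 were among the 19162 genes with enough counts to be tested. They were measured in poly(A) RNA from 2 sublines of VCaP, a human prostate cancer cell line that carries the TMPRSS2-ERG gene fusion. VCaP-T (passage 84) is a subclone kept long-term in medium with hormone-stripped serum and 10 nM testosterone (T), and VCaP-CT (passage 73) is a subclone derived from VCaP-T that was kept at 0.1 nM T until it grew there. There were 3 libraries in each of 4 groups: VCaP-T at its own 10 nM T (called maintained VCaP-T), the same line held at 0.1 nM T for 48 h (depleted VCaP-T), VCaP-CT at its own 0.1 nM T (maintained VCaP-CT), and VCaP-CT given 10 nM T for 48 h (rechallenged VCaP-CT). Each line is a single subclone, so a difference between the lines cannot be told apart from a difference between 2 subclones, and since no source used here states that replicates were separate cultures, all p-values rest on the spread among these libraries, which may be technical.

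Androgens such as testosterone act on prostate cells by raising or lowering the transcription of many genes. In luminal cells of the prostate the induced genes include secreted proteins, ion and metabolite transporters, enzymes of glycosylation, transcription elongation factors and kinases, and the levels of such genes are used to read the androgen response in prostate cancer. Several of them, NDRG1, SGK1, ZBTB16 and TSC22D3 among them, are also known targets of other steroid receptors.

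The libraries held 30174831 to 40825204 counted fragments. Of the defining markers, luminal prostate genes and both fusion genes were present in every library, while the blood markers PTPRC, CD3E and HBB together reached at most 0.951 normalized counts. KRT5, TP63, CHGA, COL1A2, DCN and CDH5 were at or near 0, and the summed basal, neuroendocrine, fibroblast and endothelial markers, held up by KRT14, ENO2 and SYP, COL1A1 and ACTA2, and VWF and PECAM1, ranged over 48.3 to 203, 1178 to 2155, 38.4 to 485 and 297 to 562. A normalized count is the fragment count of a gene scaled by the TMM library size to the mean library, and all values below are on that scale unless said otherwise, with the SD of 3 libraries after ± signs. In bulk RNA such as this, fewer cells of a kind and less RNA per cell cannot be told apart. Replicate 2 of depleted VCaP-T stood apart: over the tested genes its log2 levels correlated with its sisters at 0.962 at the lowest, against at least 0.992 within every other group, and it had 25828 genes above 0, against 28120 and 29488 in its sisters. Its departure moved with exon length. Over 13736 genes averaging more than 50 normalized counts, the median log2 ratio of this library to the mean of its sisters was 0.43 for the third of genes with the shortest exons and -0.42 for the third with the longest, while in the 9 libraries of the other groups these medians lay between -0.05 and 0.04.

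Among the 39 members this library differed from the mean of its sisters by more than 1.25-fold for 21. The short MSMB stood highest, at 2.17 times the sisters, followed by EAF2 at 1.72 and GNMT at 1.59 times. ZBTB16 stood lowest at 0.315 times, with the long ABHD2 at 0.383 and ZMIZ1 at 0.438 times. Across the members the ratio and exon length had a Spearman rho of -0.59 (39 genes of 1 library, a description only). Where leaving this library out ended or made a call on depletion or rechallenge, turned a direction or moved a called value by over 1.5 times, the value without it is given beside the result, and its part was not tested in any other way.

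**Figure D1:**
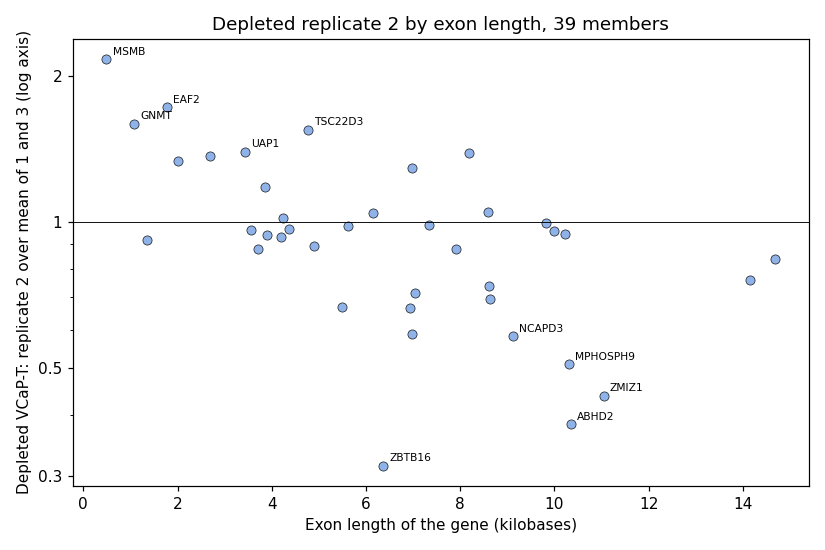
Each point is 1 of the 39 members, with its exon length in kilobases on the x axis and, on a log y axis, the normalized count in replicate 2 of depleted VCaP-T over the mean of replicates 1 and 3, with 1 added to both. Points fall from MSMB at 2.17 among the short genes to ABHD2 at 0.383 among the long ones, and ZBTB16 is lowest at 0.315.

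Of the 39 genes, 18 changed with T in both lines, and all 18 were higher at 10 nM T. On depletion 21 fell in VCaP-T (53.8% of the members, against 3.83% of all genes tested) and 1 rose, KLF5 (6.15% of all genes rose). On rechallenge 23 rose in VCaP-CT (59.0%, against 7.07% of all genes) and 1 fell, the potassium channel gene KCNN2 (7.19% of all genes fell). A change here means an adjusted p under 0.01 from edgeR's quasi-likelihood test, adjusted by Benjamini-Hochberg over all genes tested. The median log2 fold change over the members was -0.51 on depletion, against 0.04 over all genes, and 0.79 on rechallenge, against -0.02 over all genes. Without depleted replicate 2, 27 members fell (12.6% of all genes) and 4 rose (14.4%), the added risers being ACP3, KCNN2 and ZMIZ1, and 32 rose on rechallenge (19.0% of all genes).

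The larger responses, those that also passed the study's size limits of a log2 fold change over 1 and group medians more than 13 normalized counts apart, were 7 lower on depletion (0.678% of all genes) and 13 higher on rechallenge (1.83%). ACP4, EAF2, HERC3, MAF, NCAPD3 and SLC26A2 were in both sets, and ZBTB16 was in the depletion set alone. No member passed those limits against the direction of induction: 0 were higher on depletion (2.46% of all genes) and 0 lower on rechallenge (3.3%), by edgeR and by DESeq2 alike, with 2 higher on depletion and 2 lower on rechallenge at an unadjusted p under 0.05 by edgeR.

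MPHOSPH9, SLC45A3 and ZBTB16 fell on depletion but did not pass on rechallenge, and AZGP1, CAMKK2, GNMT, TPD52 and UAP1 rose on rechallenge but did not pass on depletion. Passing in one line and missing in the other does not show a difference between them, and that difference was tested separately below. The 11 members that passed in neither line were ABHD2, ACP3, C1orf116, INPP4B, MSMB, PLPP1, SGK1, SORD, TSC22D3, ZBTB10 and ZMIZ1. Without depleted replicate 2, SGK1, SORD and TSC22D3 were the members that passed in neither line, while ABHD2, MSMB and ZBTB10 passed on rechallenge, ACP3 on depletion, and C1orf116, INPP4B, PLPP1 and ZMIZ1 on both. In that fit MPHOSPH9, SLC45A3 and ZBTB16 also passed on rechallenge (0.63, 0.32 and 0.79 on the log2 scale), and CAMKK2, GNMT and UAP1 on depletion. Over all genes tested, 2.51% were induced in both lines. The 2 comparisons share no library, but their tests share a spread estimated from all 12 libraries, so the calls are not independent.

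**Figure D2:**
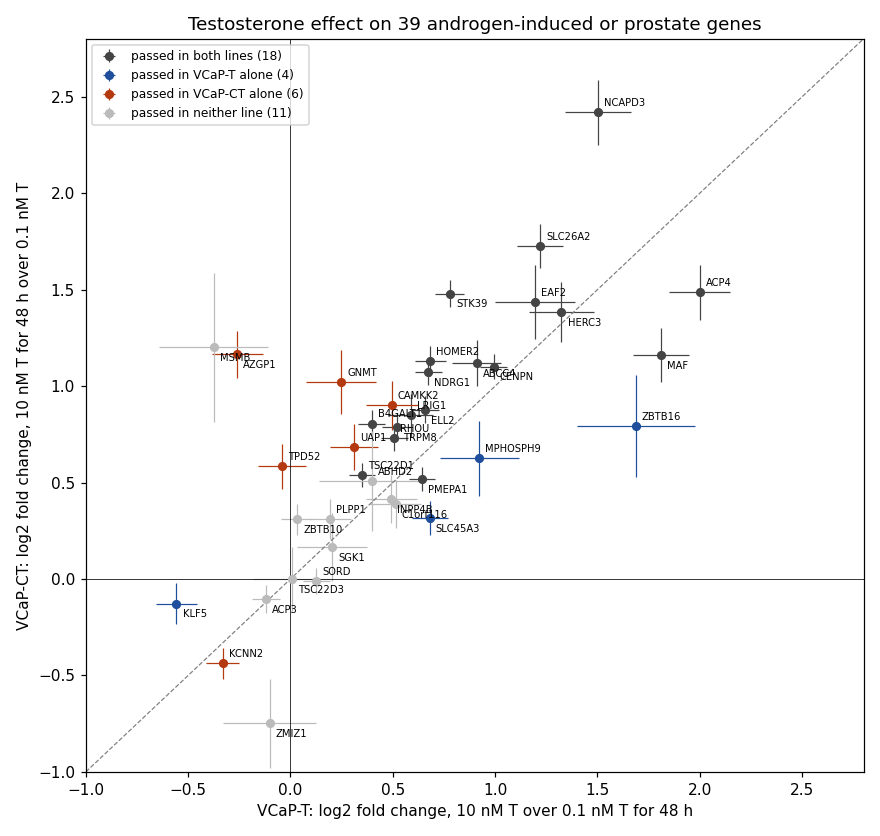
Each point is 1 member with its log2 fold change of 10 nM T over 0.1 nM T. The x axis gives VCaP-T (48 h of T withdrawal) and the y axis VCaP-CT (48 h of T addition). Bars are standard errors, the dashed line marks equal effects, and colours give the line or lines in which the member passed. NCAPD3 is highest on the VCaP-CT axis at 2.42, ACP4 lies farthest right in VCaP-T, and AZGP1 and MSMB sit left of 0 in VCaP-T and above 1 in VCaP-CT.

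The stretch before the start site was compared for members that moved together, taken from the RefSeq promoter table (GRCh38.p14), which held 30 of the 39 members. NDRG1, TPD52, ELL2, ZBTB10, ZBTB16, SORD, MSMB, PLPP1 and ZMIZ1 had no entry. The 250 bases upstream of the annotated start were searched for the half-site of the androgen response element, AGAACA or its reverse complement TGTTCT, which covers both strands, and for both in palindrome with 3 bases between. A half-site stood in 2 of the 30 (6.67%), KLF5 and STK39, against 12.4% of all 34943 promoters of the table, and the palindrome in 0 of 30 against 1 of all. The 3 upstream stretches shown first belong to the strongly induced ACP4, MAF and NCAPD3, which passed the size limits in both lines, and the last to KLF5, which moved the other way in VCaP-T. Capitals mark the half-site, all run 5′ to 3′, and none touches an exon of the counted annotation.
ACP4, chr19:50790165-50790414, plus strand: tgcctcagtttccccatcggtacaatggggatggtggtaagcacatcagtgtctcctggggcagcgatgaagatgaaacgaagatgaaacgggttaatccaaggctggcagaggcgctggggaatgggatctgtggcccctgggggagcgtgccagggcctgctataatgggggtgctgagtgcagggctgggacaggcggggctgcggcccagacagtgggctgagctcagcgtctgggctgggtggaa
MAF, chr16:79600738-79600987, minus strand: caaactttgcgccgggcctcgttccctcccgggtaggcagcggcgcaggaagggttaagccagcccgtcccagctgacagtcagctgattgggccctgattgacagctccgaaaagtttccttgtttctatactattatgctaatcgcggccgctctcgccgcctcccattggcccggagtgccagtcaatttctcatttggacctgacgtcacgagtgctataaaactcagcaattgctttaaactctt
NCAPD3, chr11:134225462-134225711, minus strand: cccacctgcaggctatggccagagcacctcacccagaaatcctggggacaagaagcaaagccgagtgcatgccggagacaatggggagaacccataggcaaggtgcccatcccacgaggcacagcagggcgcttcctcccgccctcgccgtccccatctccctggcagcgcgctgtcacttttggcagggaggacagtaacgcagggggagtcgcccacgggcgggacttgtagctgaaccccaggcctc
KLF5, chr13:73054726-73054975, plus strand: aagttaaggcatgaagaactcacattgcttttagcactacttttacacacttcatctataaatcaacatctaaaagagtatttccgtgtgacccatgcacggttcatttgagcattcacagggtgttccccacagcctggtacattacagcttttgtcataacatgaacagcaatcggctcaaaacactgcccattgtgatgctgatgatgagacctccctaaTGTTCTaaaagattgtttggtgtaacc
The first 3 hold no half-site in this window, and KLF5 holds 1. A match or its absence in 250 bases says nothing of factor binding, which was not measured.

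The secreted luminal products and acid phosphatases split widely. ACP4 fell on depletion and rose on rechallenge, AZGP1 rose on rechallenge, and ACP3 and MSMB passed in neither line. ACP4, a testicular acid phosphatase homologous to prostatic acid phosphatase (ENSG00000142513.5, chromosome 19, 50790415 to 50795224, GRCh38), had normalized counts of 789, 678 and 606 in maintained VCaP-T, 172, 163 and 183 in depleted VCaP-T, 359, 293 and 317 in maintained VCaP-CT, and 756, 889 and 1072 in rechallenged VCaP-CT. Its log2 fold change was -2.00 (adjusted p = 4.11e-06, SE 0.15) on depletion and 1.49 (adjusted p = 1.44e-05, SE 0.14) on rechallenge. The 3 depleted libraries lay below every other library, and those of maintained VCaP-CT lay above them but below all libraries at 10 nM T.

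AZGP1, a secreted zinc-binding glycoprotein of prostatic fluid (ENSG00000160862.12, chromosome 7, 99966720 to 99976157), had normalized counts of 582, 655 and 641 in maintained VCaP-T, 642, 916 and 696 in depleted VCaP-T, 939.6, 887 and 867 in maintained VCaP-CT, and 2135, 1807 and 2094 in rechallenged VCaP-CT. All 3 rechallenged libraries stood above the other 9, whereas the 2 VCaP-T groups overlapped and depleted replicate 2 was the highest of VCaP-T. The log2 fold change was 1.16 (adjusted p = 3.55e-05, SE 0.12) on rechallenge and 0.26 (adjusted p = 0.157, SE 0.13) on depletion, the latter 0.09 without replicate 2. ACP3, prostatic acid phosphatase, was the most abundant member per exon length in every group, with 733, 797, 905 and 842 fragments per kilobase of exon, scaled to a common depth as FPKM, in the 4 groups in the order above. Its log2 fold changes were 0.12 on depletion and -0.10 on rechallenge (adjusted p = 0.250 and 0.336), and the first passed as a rise of 0.15 without depleted replicate 2. MSMB, the secreted microseminoprotein beta, had 299 ± 6.40 normalized counts in maintained VCaP-T and 21.2 ± 2.61 in maintained VCaP-CT (SD, n = 3 each). Depleted VCaP-T had 279.6, 609 and 282, so replicate 2 was alone in standing apart, and the log2 fold change on depletion was 0.37 with it and -0.09 without it, neither past the threshold. Rechallenged VCaP-CT had 66.5, 42.6 and 38.4, a log2 fold change of 1.20 (adjusted p = 0.0401, SE 0.38), and the rise passed at 1.20 without depleted replicate 2.

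Of the 5 transporters and channels, 4 fell on depletion, 3 rose on rechallenge and KCNN2 fell there. SLC26A2, a sulfate transporter (ENSG00000155850.7, chromosome 5, 149960737 to 149993455), had normalized counts of 14396, 15369 and 15660.3 in maintained VCaP-T, 7170.1, 5265 and 7075 in depleted VCaP-T, 10167, 10414 and 11099.9 in maintained VCaP-CT, and 35214, 37221 and 32406 in rechallenged VCaP-CT. Its log2 fold change was -1.22 (adjusted p = 2.20e-05, SE 0.11) on depletion, -1.09 without replicate 2, and 1.73 (adjusted p = 8.23e-07, SE 0.11) on rechallenge. None of the 4 groups overlapped, and the rechallenged cells stood above VCaP-T at the same T level.

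ABCC4, an efflux pump for cyclic nucleotides and drugs (ENSG00000125257.14, chromosome 13, 95019829 to 95301475), had normalized counts of 8083, 8305 and 8715 in maintained VCaP-T, 4948, 3437 and 4969.9 in depleted VCaP-T, 2456, 2518 and 2486 in maintained VCaP-CT, and 5282, 5635 and 5285 in rechallenged VCaP-CT. It changed by -0.91 (adjusted p = 2.95e-04, SE 0.12) on depletion, -0.76 without replicate 2, and by 1.12 (adjusted p = 3.78e-05, SE 0.12) on rechallenge. Its order differed from that of SLC26A2: maintained VCaP-CT was the lowest group, and rechallenge did not bring any library up to maintained VCaP-T. SLC45A3, the membrane protein prostein, had 19335 ± 1486, 12066 ± 909, 21753 ± 428 and 27054 ± 2011 in the 4 groups, and log2 fold changes of -0.68 on depletion (adjusted p = 2.75e-04) and 0.31 on rechallenge (adjusted p = 0.0212). TRPM8, a cold-sensing cation channel, changed by -0.52 and 0.79 in the same comparisons, both past the threshold. KCNN2, a calcium-activated potassium channel, fell on rechallenge, with -0.44 (adjusted p = 0.00169), a call that was lost without rechallenged replicate 1, where the value was -0.44. Its log2 fold change on depletion was 0.33 (adjusted p = 0.0124), which passed without replicate 2 at 0.24.

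Of the 9 transcription and elongation factors, 5 fell and 1 rose on depletion, and 4 rose on rechallenge. MAF, a basic leucine zipper transcription factor (ENSG00000178573.6, chromosome 16, 79585843 to 79600714), had normalized counts of 566, 536 and 559 in maintained VCaP-T, 155, 186 and 133 in depleted VCaP-T, 116.4, 122 and 138 in maintained VCaP-CT, and 293, 309.6 and 240.0 in rechallenged VCaP-CT. The log2 fold changes were -1.81 (adjusted p = 5.14e-06, SE 0.14) on depletion and 1.16 (adjusted p = 9.00e-05, SE 0.14) on rechallenge. Every library at 0.1 nM T lay below every library at 10 nM T, and rechallenged VCaP-CT stayed below maintained VCaP-T.

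ELL2 and EAF2 encode partners in transcription elongation. EAF2 (ENSG00000145088.8, chromosome 3, 121835183 to 121886526) had normalized counts of 269.7, 259 and 285 in maintained VCaP-T, 93.5, 167 and 99.0 in depleted VCaP-T, 129, 169 and 129 in maintained VCaP-CT, and 411, 351 and 396 in rechallenged VCaP-CT. It changed by -1.20 (adjusted p = 0.00137, SE 0.20) on depletion, -1.50 without replicate 2, and by 1.44 (adjusted p = 2.02e-04, SE 0.19) on rechallenge. The libraries at 0.1 nM T of the 2 lines overlapped only through depleted replicate 2, and all lay below those at 10 nM T. Depleted replicates 1 and 3 lay below every library of maintained VCaP-CT. ELL2, the more abundant of the pair at 72.1 against 4.35 FPKM in maintained VCaP-T, changed by -0.66 and 0.88 on the log2 scale, both past the threshold.

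ZBTB16, the zinc finger repressor PLZF (ENSG00000109906.13, chromosome 11, 114059593 to 114250676), had normalized counts of 442, 377 and 384 in maintained VCaP-T, 146, 49.4 and 172 in depleted VCaP-T, 519, 488 and 465 in maintained VCaP-CT, and 823, 775 and 949 in rechallenged VCaP-CT. It fell by 1.69 on the log2 scale on depletion (adjusted p = 0.00176), with a log2 fold change of -1.34 without replicate 2, the library with the lowest ratio to its sisters of any member. On rechallenge the log2 fold change was 0.79 (adjusted p = 0.0475, SE 0.26), and without depleted replicate 2 the same fold change passed. The 4 groups did not overlap.

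TSC22D1, a leucine zipper protein, fell by 0.35 on depletion and rose by 0.54 on rechallenge on the log2 scale, the fall being lost without any single library of maintained VCaP-T or without depleted replicate 3, with values of -0.36 to -0.34. Its relative TSC22D3, known as GILZ, did not pass on either (-0.01 and 0.00, the former -0.23 without replicate 2) but had 68.2 ± 9.26 and 68.6 ± 20.0 normalized counts in the 2 VCaP-T groups against 194 ± 7.23 and 194 ± 9.03 in VCaP-CT. KLF5, a Krueppel-like factor, had 438, 418 and 506 in maintained VCaP-T and 676, 641 and 689 in depleted VCaP-T, a log2 fold change of 0.56 (adjusted p = 0.00225, SE 0.10), lost without replicate 1 or 2 of maintained VCaP-T, at 0.50 to 0.53. VCaP-CT held 191, 171 and 198 at 0.1 nM T and 161, 183 and 169 at 10 nM T, below all of VCaP-T. ZBTB10 and ZMIZ1 had log2 fold changes of -0.03 and 0.10 on depletion and 0.31 and -0.75 on rechallenge, with none passing. Without depleted replicate 2, ZBTB10 rose on rechallenge (0.31), and ZMIZ1, a transcriptional coregulator, rose on depletion (0.40) and fell on rechallenge (-0.75).

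Of the 9 kinases, phosphatases and signaling regulators, 6 fell on depletion and 7 rose on rechallenge. STK39, a kinase that acts on ion cotransporters (ENSG00000198648.10, chromosome 2, 167954020 to 168248141), had normalized counts of 4288, 4512 and 4851 in maintained VCaP-T, 2683, 2687 and 2584 in depleted VCaP-T, 1614, 1739.8 and 1689 in maintained VCaP-CT, and 4746, 4827 and 4491 in rechallenged VCaP-CT. It changed by -0.78 (adjusted p = 1.97e-05, SE 0.07) on depletion and by 1.48 (adjusted p = 7.43e-08, SE 0.07) on rechallenge. The 10 nM T groups of the 2 lines overlapped, while maintained VCaP-CT lay below depleted VCaP-T in every library.

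HOMER2, a scaffold protein of the synapse and of calcium signaling (ENSG00000103942.12, chromosome 15, 82836946 to 82986153), had normalized counts of 13982, 14033 and 14048 in maintained VCaP-T, 9300.0, 7749 and 9144 in depleted VCaP-T, 11398, 11241 and 11304 in maintained VCaP-CT, and 24709.8, 24812 and 24705 in rechallenged VCaP-CT. Its log2 fold changes were -0.68 (adjusted p = 9.52e-05, SE 0.08) on depletion and 1.13 (adjusted p = 1.15e-06, SE 0.08) on rechallenge. No 2 groups overlapped. NDRG1, a stress-induced growth regulator (ENSG00000104419.14, chromosome 8, 133237171 to 133302022), had normalized counts of 69763, 66702 and 66238 in maintained VCaP-T, 42086, 42200.3 and 42910.1 in depleted VCaP-T, 34306, 34286 and 33651 in maintained VCaP-CT, and 71693, 69549 and 74033 in rechallenged VCaP-CT. It changed by -0.67 (adjusted p = 3.47e-05, SE 0.07) and by 1.07 (adjusted p = 4.86e-07, SE 0.07). Both 10 nM T groups overlapped and both 0.1 nM T groups lay below them, VCaP-CT lowest.

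PMEPA1, a feedback inhibitor of TGF-beta signaling, changed by -0.64 on depletion and 0.52 on rechallenge on the log2 scale, RHOU, a small GTPase, by -0.51 and 0.73, and LRIG1, a brake on receptor tyrosine kinases, by -0.59 and 0.85, all past the threshold. The fall of LRIG1 was lost without any single library of maintained VCaP-T, at values of -0.59 to -0.58. CAMKK2, a kinase upstream of AMPK, rose by 0.90 on rechallenge (adjusted p = 2.95e-04) and had -0.50 on depletion (adjusted p = 0.0165), which passed without replicate 2 at -0.33. SGK1, a serum- and glucocorticoid-regulated kinase, and INPP4B, a lipid phosphatase, were low in every group, at 0.279 to 0.376 and 0.492 to 0.700 FPKM. Their log2 fold changes were -0.20 and -0.49 on depletion and 0.17 and 0.41 on rechallenge, none past the threshold. Without depleted replicate 2, INPP4B passed on both, at -0.38 and 0.41.

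Metabolic enzymes gave 1 faller of 6 on depletion and 3 risers on rechallenge. GNMT, a liver-type methyltransferase that uses S-adenosylmethionine (ENSG00000124713.5, chromosome 6, 42960758 to 42963880), had normalized counts of 223, 199.7 and 180.3 in maintained VCaP-T, 138, 227 and 146 in depleted VCaP-T, 199, 185 and 186 in maintained VCaP-CT, and 375, 364 and 419 in rechallenged VCaP-CT. It changed on rechallenge by 1.02 (adjusted p = 8.39e-04, SE 0.17) on the log2 scale, and its value on depletion was -0.25 (adjusted p = 0.326, SE 0.17). The rechallenged libraries stood above the other 9. The VCaP-T groups overlapped through depleted replicate 2, and without it the fold change was -0.50 and passed the threshold.

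B4GALT1, a Golgi galactosyltransferase, was the faller, by 0.40 on the log2 scale, a call lost without replicate 2 or 3 of maintained VCaP-T at -0.40 to -0.38, and it rose by 0.81 on rechallenge. UAP1, which makes the sugar donor UDP-GlcNAc, rose by 0.68 on rechallenge (adjusted p = 0.00119) and had -0.31 on depletion, which passed without replicate 2 at -0.49. ABHD2, a lipase, had 25653, 25095 and 25647 in maintained VCaP-T and 24573, 9311 and 24033 in depleted VCaP-T. Only replicate 2 was far below, and without it the log2 fold change was -0.07 in place of -0.40, neither past the threshold. Its log2 fold change of 0.51 on rechallenge (adjusted p = 0.186) passed without that library at 0.51. SORD, sorbitol dehydrogenase, had -0.13 on depletion and -0.01 on rechallenge, neither past the threshold, and its reads are uncertain because of a near-identical pseudogene. PLPP1, a lipid phosphatase, had -0.19 and 0.31, neither past the threshold, but passed on both without depleted replicate 2, at -0.35 and 0.31, and 28.4% of its exon bases overlap other genes, and fragments over shared bases were left out.

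Of the 6 trafficking, chromosome and other members, 4 fell on depletion and 4 rose on rechallenge. NCAPD3, a subunit of condensin II (ENSG00000151503.12, chromosome 11, 134150119 to 134225454), gave the largest rise of the 39 on rechallenge. It had normalized counts of 12745, 12347 and 13237 in maintained VCaP-T, 5255, 3041 and 5218 in depleted VCaP-T, 5413, 5619 and 5417 in maintained VCaP-CT, and 28174, 29489.8 and 30351 in rechallenged VCaP-CT. The log2 fold changes were -1.50 (adjusted p = 7.10e-05, SE 0.16) on depletion, -1.29 without replicate 2, and 2.42 (adjusted p = 1.24e-06, SE 0.17) on rechallenge. The libraries at 0.1 nM T of both lines were far below all others, and rechallenged VCaP-CT exceeded maintained VCaP-T in every library.

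HERC3, a ubiquitin ligase (ENSG00000138641.16, chromosome 4, 88592423 to 88708542), had normalized counts of 2316, 2425 and 2467 in maintained VCaP-T, 1129, 652 and 1092 in depleted VCaP-T, 3571, 3673 and 3689.6 in maintained VCaP-CT, and 9334, 9868 and 9341 in rechallenged VCaP-CT. Its change was -1.32 (adjusted p = 1.35e-04, SE 0.16) on depletion, -1.11 without replicate 2, and 1.38 (adjusted p = 5.14e-05, SE 0.15) on rechallenge. All libraries of maintained VCaP-CT exceeded those of maintained VCaP-T, and the groups did not overlap. CENPN, a centromere protein (ENSG00000166451.13, chromosome 16, 81006498 to 81033114), had normalized counts of 3091, 3206 and 3304 in maintained VCaP-T, 1586, 1566 and 1673 in depleted VCaP-T, 1461, 1467 and 1534 in maintained VCaP-CT, and 3119, 3249 and 3205 in rechallenged VCaP-CT. It changed by -0.99 (adjusted p = 1.69e-06, SE 0.07) and by 1.10 (adjusted p = 3.65e-07, SE 0.07). The 2 groups at 10 nM T overlapped, and 20.1% of its exon bases overlap other genes.

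MPHOSPH9, a protein of the centriole, fell by 0.92 on depletion on the log2 scale (adjusted p = 0.00592), with 2569.7, 1306 and 2563 in the depleted libraries against 3979, 4027 and 4208 in maintained VCaP-T. The call was lost without any single library outside depleted VCaP-T, at -0.94 to -0.90, and kept without depleted replicate 2 at -0.67. TPD52, a vesicle trafficking protein, rose by 0.58 on rechallenge (adjusted p = 0.00350), lost without any one of the VCaP-CT libraries at 0.1 nM T or rechallenged replicate 1 or 2 at 0.55 to 0.60, and its value on depletion was 0.04, or -0.14 without replicate 2, neither past the threshold. C1orf116, an androgen-responsive protein of unclear function, had -0.51 on depletion (adjusted p = 0.0139) and 0.39 on rechallenge (adjusted p = 0.0419), and passed on both without depleted replicate 2, at -0.35 and 0.39.

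**Figure D3:**
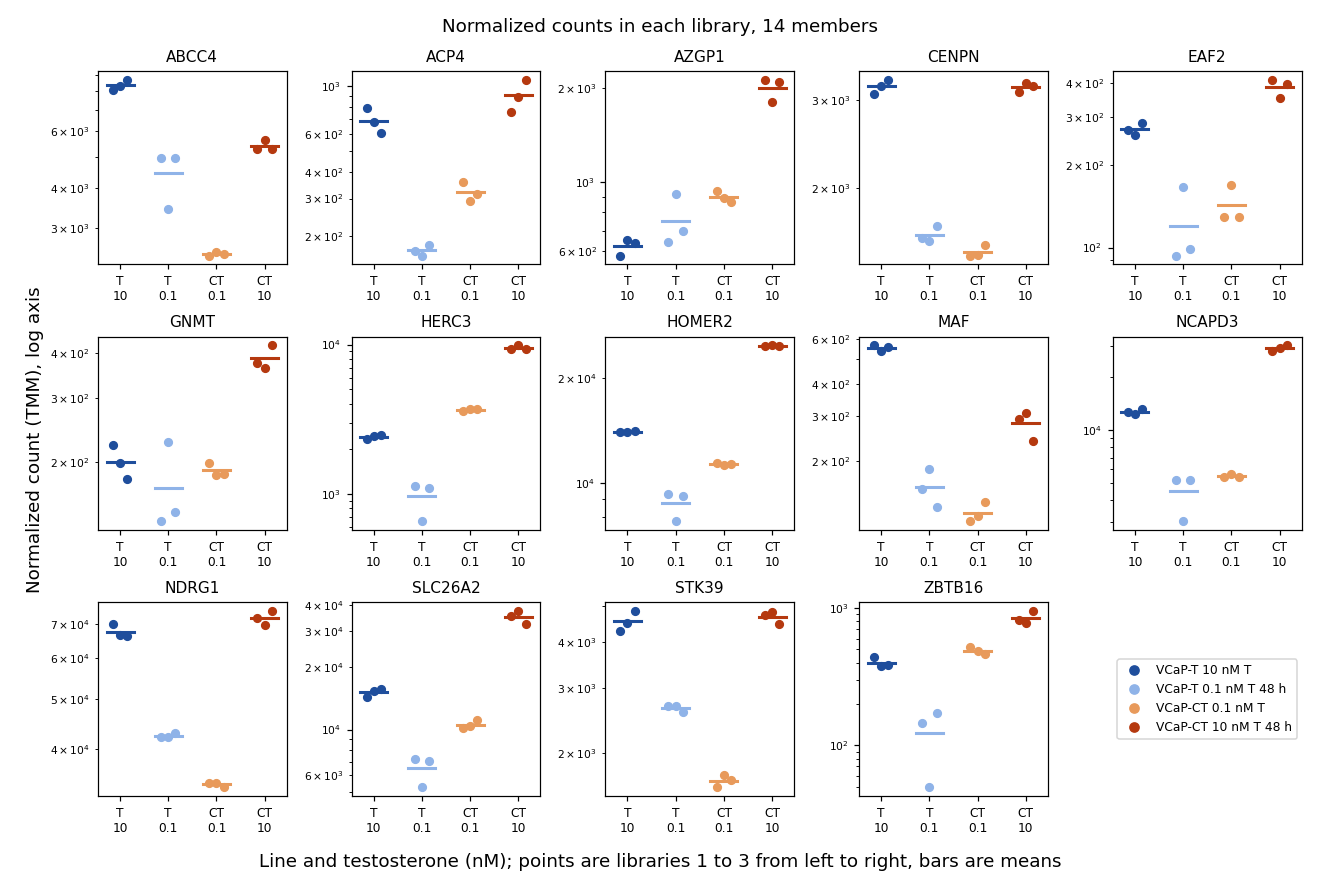
Normalized counts on a log axis for the 14 members described library by library, with VCaP-T at 10 nM and 0.1 nM T (T 10, T 0.1) in blue and VCaP-CT at 0.1 nM and 10 nM T (CT 0.1, CT 10) in orange and red. Points are libraries 1 to 3 from left to right and bars are means, and each axis has its own range. Among the depleted libraries, replicate 2 is the low point of ZBTB16 (49.4) and HERC3 (652) and the high point of EAF2 (167).

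Whether the genes that fell on depletion returned in maintained VCaP-CT was read from 2 further comparisons of the same model, maintained VCaP-CT against maintained VCaP-T and against depleted VCaP-T. A gene counted as recovered when VCaP-CT did not differ from maintained VCaP-T (adjusted p above 0.1) or lay beyond it, as not recovered when VCaP-CT did not differ from depleted VCaP-T or lay even further away, and otherwise as in between. Of the 21 members that fell, 5 recovered, 5 were in between and 11 did not recover. In percent these are 23.8, 23.8 and 52.4, beside 31.2%, 10.6% and 58.1% of all 733 genes that fell. These comparisons share libraries, so the categories are a description with no test of their own, and an adjusted p above 0.1 does not show that levels were equal.

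HERC3, PMEPA1, SLC45A3, TRPM8 and ZBTB16 recovered. HERC3, PMEPA1 and TRPM8 went past the level of maintained VCaP-T, by 0.60, 0.36 and 0.44 on the log2 scale (adjusted p = 0.00731, 6.16e-04 and 3.50e-04). SLC45A3 and ZBTB16 differed from it by 0.17 and 0.29 (adjusted p = 0.139 and 0.406). Without depleted replicate 2, a library of neither group compared, SLC45A3 and ZBTB16 also passed as higher, at 0.17 and 0.30 (adjusted p = 0.00981 and 0.00744). Against depleted VCaP-T the largest of these gaps were 1.98 for ZBTB16 and 1.92 for HERC3, or 1.64 and 1.72 without replicate 2. The excess of HERC3 over maintained VCaP-T was lost as a call without any single library outside depleted VCaP-T, at 0.58 to 0.62.

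ACP4, ELL2, HOMER2, RHOU and SLC26A2 were in between: on the log2 scale maintained VCaP-CT had regained 45.3%, 52.6%, 54.7%, 61.3% and 57.3% of the distance lost. RHOU lay 0.20 under maintained VCaP-T with an adjusted p of 0.0315, which puts it nearest to recovered in this class. Of the 11 that did not recover, B4GALT1, CENPN, EAF2, LRIG1, MPHOSPH9 and NCAPD3 had adjusted p-values above 0.1 against depleted VCaP-T, from 0.177 to 0.869. ABCC4, MAF, NDRG1, STK39 and TSC22D1 had lower values still, although MAF missed the threshold against depleted VCaP-T (adjusted p = 0.0819). ABCC4 was 0.84 and STK39 0.66 on the log2 scale under depleted VCaP-T, followed by TSC22D1, MAF and NDRG1 at differences of -0.37, -0.33 and -0.32. Leaving out depleted replicate 2 turned the difference of MPHOSPH9 from depleted VCaP-T from 0.05 to -0.21, which passed as lower (adjusted p = 0.00403). That of LRIG1 turned from 0.06 to -0.08 and did not pass. KLF5, which rose on depletion, lay at -1.28 against maintained VCaP-T in VCaP-CT, beyond it on the other side.

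Without depleted replicate 2, 21 of the 22 members classified kept their category and EAF2 moved to in between, with VCaP-CT 0.57 above depleted VCaP-T on the log2 scale. The recovered members then numbered 11, KLF5 and further genes that passed on depletion included, against 6 with all libraries. NCAPD3 left the class of genes not recovered without depleted replicate 1 or 3. The number not recovered was 7 without replicate 2 or 3 of maintained VCaP-T, since the falls of B4GALT1, LRIG1, MPHOSPH9 and TSC22D1 did not pass there.

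**Figure D4:**
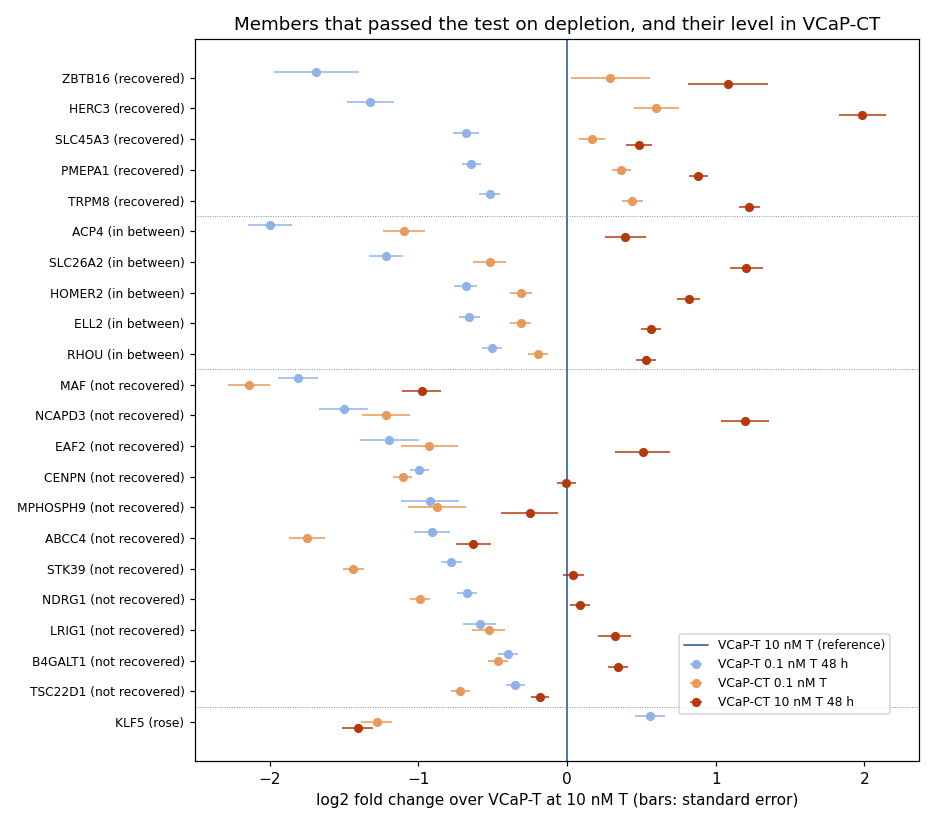
Log2 fold change over maintained VCaP-T (x axis, bars are standard errors) of the 22 members that passed on depletion, in depleted VCaP-T (light blue), maintained VCaP-CT (orange) and rechallenged VCaP-CT (red), grouped by category. The 5 recovered members have orange points at or right of the 0 line, while ABCC4 and STK39 have theirs at -1.75 and -1.44, left of depleted VCaP-T.

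Set side by side at the same T level, more members stood higher in VCaP-CT than in VCaP-T. At 0.1 nM T, 16 were higher and 8 lower (13% and 16.4% of all genes), and at 10 nM T, 20 were higher and 5 lower (12% and 13.2% of all genes). In these comparisons one line had its own T level and the other had met it for 48 h. At 10 nM T the widest excesses in VCaP-CT were those of HERC3 (1.99 on the log2 scale), AZGP1 (1.68), TSC22D3 (1.50), TRPM8 (1.23), SLC26A2 (1.21) and NCAPD3 (1.20). The 5 lower ones were ABCC4 (-0.63), KLF5 (-1.41), MAF (-0.98), MSMB (-2.61) and SORD (-0.67). ABCC4, KLF5, MSMB and SORD were also lower at 0.1 nM T, with NDRG1, STK39, TPD52 and TSC22D1. Near the threshold, the calls of TPD52 at 0.1 nM T and ZBTB16 at 10 nM T were lost without any single library outside depleted VCaP-T, at -0.47 to -0.42 and 0.99 to 1.16. Those of NDRG1, ELL2 and RHOU at 0.1 nM T were lost without 1 or more libraries of maintained VCaP-CT, at -0.32 to -0.30, 0.34, and 0.28 to 0.32, and that of B4GALT1 at 10 nM T without replicate 2 of maintained VCaP-T, at 0.34.

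With each line in its own medium, 8 members were higher in VCaP-CT (14.8% of all genes) and 18 lower (15.7%). The higher ones were ACP3, AZGP1, HERC3, KCNN2, PMEPA1, TRPM8, TSC22D3 and ZBTB10, led by TSC22D3 at 1.50 (adjusted p = 2.62e-05, SE 0.18) and KCNN2 at 1.17 (adjusted p = 2.56e-07, SE 0.08). MSMB was lowest at -3.82 (adjusted p = 2.69e-06, SE 0.34), then MAF at -2.14 and ABCC4 at -1.75. Without depleted replicate 2 the number higher was 14, beside 26.7% of all genes, and the number lower 22, beside 26.7%. The number higher was 5 without replicate 1 or 2 of maintained VCaP-T or without any one library of maintained VCaP-CT. The calls of ACP3, AZGP1 and HERC3 were lost at values of 0.28 to 0.31, 0.47 to 0.56 and 0.58 to 0.62. Among the lower ones, those of EAF2, ELL2, HOMER2, LRIG1, MPHOSPH9 and SLC26A2 were each lost without 1 of 2 to 8 single libraries, at -0.88 to -0.85, -0.32 to -0.27, -0.31 to -0.30, -0.53 to -0.51, -0.89 to -0.85 and -0.51 to -0.49, with 12 lower without replicate 1 of maintained VCaP-CT. NR3C1, the glucocorticoid receptor, was lower in VCaP-CT in all 3 comparisons of the lines, at 625 to 673 in maintained VCaP-T and 38.5 to 60.6 in maintained VCaP-CT. Its part in the members' levels was not tested.

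The T effect itself, the signed log2 fold change of 10 nM over 0.1 nM T, was compared between the lines in the same model. In VCaP-T this effect came from 48 h of T withdrawal, and in VCaP-CT from 48 h of T addition. A difference between the lines therefore cannot be told apart from a difference between withdrawal and addition. Of the 39, 2 had a lower effect in VCaP-T than in VCaP-CT (0.804% of all genes) and 0 a higher one (0.162% of all genes), the 0 being by edgeR and by DESeq2, with 4 higher at an unadjusted p under 0.05 by edgeR. They were AZGP1, with a difference of -1.42 (adjusted p = 0.00141, SE 0.18) on the log2 scale, and STK39, with -0.70 (adjusted p = 0.00295, SE 0.10). The difference of AZGP1 was -1.25 without depleted replicate 2. The call of STK39 was lost without replicate 1 or 2 of maintained VCaP-T, any one library of maintained VCaP-CT, or rechallenged replicate 1 or 2, at -0.72 to -0.66. Without depleted replicate 2 the counts were 15 lower and 2 higher (5.62% and 1.77% of all genes), the 2 being MAF (0.77) and ZMIZ1 (0.35). ZMIZ1 was then lower at 10 nM T in both lines, by less in VCaP-T than in VCaP-CT. The added 13 included NCAPD3 (-1.13), MSMB (-1.10), SLC26A2 (-0.64) and CAMKK2 (-0.58). Over all 39 members the median difference was -0.21, against -0.01 over all genes.

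Per exon length, the members covered a wide range of level. ACP3 was highest in every group, followed at 10 nM T in VCaP-T by NDRG1 at 195, PMEPA1 at 188 and SLC45A3 at 148 FPKM. The pair NDRG1 and PMEPA1 lay close there, with SDs of 5.53 and 4.40 FPKM over 3 libraries, and their order was not tested. In maintained VCaP-CT the order below ACP3 was PMEPA1 at 242, SLC45A3 at 167 and NDRG1 at 98.5 FPKM. SGK1 was lowest in every group, at 0.279 to 0.376 FPKM.

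**Figure D5:**
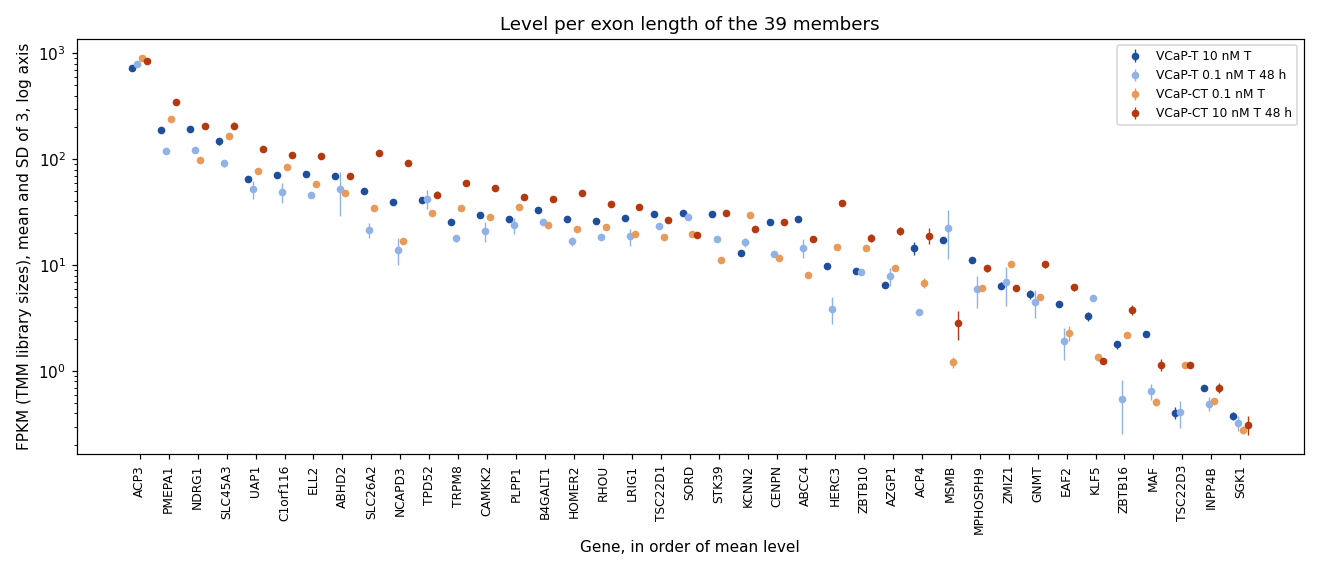
FPKM on a log axis of the 39 members in the 4 groups, as the mean and SD of 3 libraries, in order of mean level. ACP3 is highest at 733 to 905 FPKM, SGK1 is lowest at 0.279 to 0.376 FPKM, and the wide bars of ABHD2 and MSMB belong to depleted VCaP-T.

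A second list of 68 androgen-responsive genes outside the 39, all tested, was counted alongside. On depletion 22 fell (3.83% of all genes tested fell). On rechallenge 32 rose and 1, ADAMTS1, fell (7.07% of all genes rose and 7.19% fell). The medians were -0.23 on depletion and 0.37 on rechallenge, on the log2 scale. STEAP4, a metalloreductase, had the smallest adjusted p on depletion, with 4585 ± 121 in maintained VCaP-T, 533 ± 90.8 in depleted VCaP-T, 148 ± 16.5 in maintained VCaP-CT and 6606 ± 434 on rechallenge (log2 fold changes -3.10 and 5.48). TMPRSS2 and ACSL3, the next by that order, changed by -1.25 and -1.14 on depletion and by 1.87 and 1.89 on rechallenge. Of 35 proliferation genes, 4 fell on depletion (MCM3, MCM4, MCM6 and NCAPH) and 6 rose on rechallenge, beside 3.83% and 7.07% of all genes. Their summed level was 170929 to 187051 normalized counts in depleted VCaP-T and 215522 to 222553 in maintained VCaP-T, so within VCaP-T it moved with the fall of the members. In maintained VCaP-CT it was 207522 to 213356, and in rechallenged VCaP-CT 222491 to 232650. The part of this level in the fall of the members was not tested.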

How the data were processed

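RNA was measured in 12 libraries, 3 in each of 4 groups, made per the labels and the study's methods from poly(A) RNA with a stranded kit and paired reads. The authors aligned reads with STAR 2.5.4b to GRCh38 and deposited raw fragment counts per gene from featureCounts 1.6.2, counted without strand and without fragments that mapped to several places or to several genes, so genes whose exons overlap lose counts or mix with their antisense partners. The authors also deposited a table of counts divided by DESeq2 size factors (signal, DESeq2 1.24.0 in R 3.6.1), used here only to look up its genes and size factors.

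The deposited counts were normalized by TMM and tested in edgeR 4.0.16 (R 4.3.3) with the quasi-likelihood F-test after filterByExpr, in 1 model of the 4 groups with all 12 libraries, which left 19162 genes. P-values were adjusted by Benjamini-Hochberg over these genes at a threshold of 0.01. The study's size limits, a log2 fold change over 1 and group medians more than 13 normalized counts apart, were added for the larger responses. The test was tried on simulated data first. Levels per exon length (FPKM) were computed from TMM-normalized counts and the exon lengths of the count files. Depth of 30174831 to 40825204 fragments a library limits precision mainly for the genes of low count, and SDs are over 3 libraries.

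The members and the lists were chosen with earlier results of these data known. Members were described library by library if they passed the size limits on depletion or rechallenge or if their response differed between the lines, and of the other lists the 3 genes with the smallest adjusted p on depletion in each direction could be named. The remaining members, NR3C1 and genes of other lists with 5 or fewer calls were named after their values were seen where a count or comparison turned on them. Upstream sequences came from the RefSeq table of GRCh38.p14, at most 4, from members that passed the size limits in both lines or hold the searched motif and whose stretch touches no exon. Alternatives were DESeq2 1.42.0, its size factors in edgeR, no filter on low counts, only the 6 libraries of a comparison, a replicate block, each library left out in turn and, for recovery, another limit for no difference and only the larger responses. Figures were drawn with matplotlib 3.10.9 in Python 3.11.15. Some results are not reported here.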

Additional observations from a re-analysis of the deposited data

Results flagged for a closer look

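For 2 members the signed log2 effect of 10 nM over 0.1 nM T differed between the lines by an interaction term in edgeR's model. The effect came from T withdrawal in VCaP-T and from T addition in VCaP-CT, so line and direction of change cannot be told apart. For AZGP1 the effect in VCaP-T minus that in VCaP-CT was -1.42 (adjusted p = 0.00141), with a higher level in all 3 rechallenged VCaP-CT libraries than in any other library and overlapping groups in VCaP-T. For STK39 it was -0.70 (adjusted p = 0.00295), with a lower level in every VCaP-CT library at 0.1 nM T than in depleted VCaP-T. The call of STK39 was lost when any of 7 single libraries was left out, at -0.72 to -0.66, while that of AZGP1 was kept whichever single library was left out.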

How the results depend on the processing

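No value of the 39 genes that passed both in the edgeR fit of all 12 libraries and in an alternative run changed sign. MPHOSPH9 in maintained VCaP-CT against depleted VCaP-T did not pass at 0.05 with all libraries. It passed with the other sign, at -0.21, without depleted replicate 2. With DESeq2, 2 members were higher on depletion and 6 had a lower T effect in VCaP-T than in VCaP-CT, in place of 1 and 2. With no filter on low counts, 2 were lower on rechallenge in place of 1. With only the 6 libraries of each comparison, 0 were higher and 6 lower on depletion, 4 lower at the study's size limits and 2 lower on rechallenge. In that setting 13 were higher in VCaP-CT with each line in its own medium, 8 higher and 5 lower at 0.1 nM T, and 0 recovered, 3 were in between and 3 were not recovered. Among the larger falls alone, 2 recovered, 2 were in between and 3 did not. The fits of 6 libraries use fewer samples, and the larger falls fewer members, by construction. The 6 libraries on depletion and at 0.1 nM T include depleted replicate 2, and those of the other comparisons do not. Its part in these counts was not tested, nor was the cause for DESeq2 and the filter. The counts of recovery here include KLF5.

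With a replicate block, 5 members were higher in VCaP-CT with each line in its own medium in place of 8, and 1 had a lower T effect in VCaP-T in place of 2. Of 234 values of single members, 227 kept their direction and side of the threshold and 7 no longer passed, those of MPHOSPH9 on depletion, HERC3, ACP3, AZGP1 and HOMER2 between the lines in their own media, TPD52 at 0.1 nM T and STK39 for the response difference. The 18 correlations between the deviations of same-numbered libraries ran from -0.42 to 0.18, so the numbers were not taken to pair the samples, and these calls are not read as weaker effects. DESeq2's size factors left all 234 as they were.

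Leaving out each library in turn gave 0 to 4 members higher and 17 to 27 lower on depletion, and 22 to 32 higher and 0 to 2 lower on rechallenge. The larger responses numbered 7 to 9 lower on depletion and 12 to 14 higher on rechallenge, with 0 in the other directions. Between the lines in their own media 5 to 14 were higher and 12 to 22 lower, at 0.1 nM T 14 to 22 and 6 to 10, and at 10 nM T 18 to 25 and 5 to 7. The response difference was higher for 0 to 2 and lower for 1 to 15. Recovered members numbered 5 to 11, those in between 4 to 6 and those not recovered 7 to 14. Depleted replicate 2 gave the upper end of most ranges. Without it the shares of all genes rose as well. Between the lines in their own media 26.7% of all genes were higher and 26.7% lower. At 0.1 nM T these shares were 23.2% and 24.4%, and at 10 nM T 24.7% and 23.2%. Of the 22 calls on depletion 5 were lost without at least 1 library, and of the 24 on rechallenge 2.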
